A study of Ambystoma mexicanum with 49 samples.

Results

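The genes for the protein components of the cytosolic ribosome were followed through embryonic development of the axolotl, Ambystoma mexicanum, a salamander. Members were taken by name: all symbols of the numbered RPS series of the small subunit and the numbered RPL series of the large subunit, with any paralog letter, plus RPSA, RPLP0, RPLP1 and RPLP2, and without the kinases that phosphorylate RPS6. This gave 84 of the 15631 genes in the tables, 33 of the small and 51 of the large subunit; the rule itself uses names alone, though it was set with earlier results of these data known. Of these, 73 had at least 108 estimated counts in each poly(A) library and are called the measured members here. The other 11 stayed at or under 5.16 TPM (a transcript level scaled for library size and gene length) in all 49 poly(A) libraries and are described at the end.

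Poly(A) RNA was sequenced from 49 single embryos of 17 stages (1 to 12, 14, 16, 19, 24 and 40), with 3 embryos at each of 15 stages and 2 at stages 1 and 11. Total RNA depleted of ribosomal RNA gave 2 more libraries at stage 1 and 3 at stage 2. The labels name no genotype, strain, sex or treatment, so stage is the only difference between the groups that they give. By the usual staging of the species, stage 1 is the egg before cleavage, stage 2 the first cleavage, stages 8 and 9 are blastulae, stages 10 to 12 gastrulae, stages 14 to 19 neurulae, stage 24 an early tail bud and stage 40 an embryo near hatching.

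A ribosome needs its proteins in nearly equal number, and vertebrate ribosomal protein genes are usually transcribed as a coordinated set. Their mRNAs start with a run of pyrimidines, the terminal oligopyrimidine (TOP) motif, through which the mTOR pathway and the protein LARP1 control their translation and stability. The egg inherits ribosomes from the oocyte, and in the frog Xenopus ribosomal protein mRNAs lose poly(A) at oocyte maturation and are made anew only after the mid-blastula.

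The estimated counts per library, in units of 1e6, were 12.0 to 44.9 in poly(A) RNA and 17.4 to 25.5 in total RNA. Sums over the members were 42278 to 3041234 counts per poly(A) library and 30999 to 49981 per total RNA library. All 12 oocyte and egg markers on a fixed list were detected in every library of stages 1 to 11, with a summed level of 5300 TPM in a stage 1 embryo and 7.72 TPM in a stage 40 embryo at the extremes. The 25 markers of late tissues (muscle, blood, liver, gut, epidermis, cartilage and lens) summed to between 55900 and 71100 TPM at stage 40, and muscle CKM and MYLPF led there. In total RNA the mitochondrial gene COX1 made up 26.9 to 35.2% of TPM and RN7SL1, the RNA of the signal recognition particle, 15.2 to 23.9%. At stage 2 replicate 2 stood apart in both kinds of library: of the 73 measured members, 72 were highest there among the poly(A) embryos and 69 among the total RNA libraries. Stage 3 replicate 2, which had the highest COX1 share of any poly(A) library at 17.7%, was the highest of its stage for 71 members, and stage 10 replicate 1 for 72. Stage 9 replicate 3 was the highest of its stage for 69. Stage 7 replicate 2 and stage 8 replicate 3 were the lowest of their stages for 67 each. The members thus moved together by library, and counts of members are not counts of independent observations. The sources used here do not tie the total RNA libraries to embryos, so that p-values from them measure the spread between libraries, which may be technical.

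The summed share of the members was lowest in late cleavage and climbed steeply in gastrulation. As a percent of poly(A) TPM it was 0.959 ± 0.0516 (SD, n = 2) at stage 1, 0.836 ± 0.22 at stage 2, 0.455 ± 0.0488 at stage 7 and 0.512 ± 0.0509 at stage 8. It was 0.661 ± 0.116 at stage 9, 0.983 ± 0.223 at stage 10 and 1.26 ± 0.368 (n = 2) at stage 11. At stage 12 it was 3.1 ± 0.286, at stage 14 it was 6.31 ± 0.04, at stage 24 it was 8.44 ± 0.745 and at stage 40 it was 8.36 ± 0.247 (SD, n = 3 for each stage with no n beside it). All 3 embryos of stage 12 lay above all embryos of stages 1 to 11, and all 3 of stage 14 above all of stage 12. In whole embryos a larger share of cells with a high level and a higher level per cell cannot be told apart, and after stage 2, where there are no total RNA libraries, more mRNA and longer poly(A) tails cannot be told apart either.

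**Figure D1:**
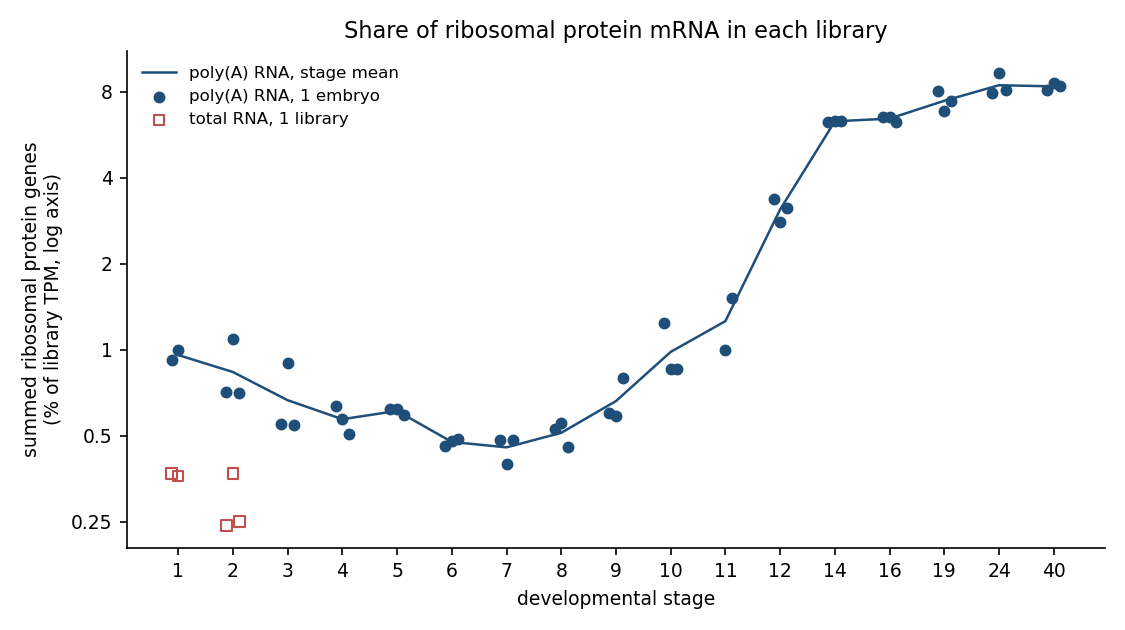
Summed TPM of the 84 ribosomal protein genes as a percent of each library's TPM (log axis), by stage; filled points are single embryos in poly(A) RNA, the line joins stage means and open squares are total RNA libraries. The stage mean is lowest at stage 7 (0.455%), where replicate 2 has 0.399% and the other embryos 0.483 and 0.484%. It stands at 6.31% at stage 14. Replicate 2 of stage 2 lies above the other embryos of its stage in poly(A) RNA. In total RNA the stage 2 library numbered 2 lies above the other libraries of that stage.

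Single members followed this course closely. The median member had 112 TPM at stage 1, 94.6 at stage 2, 60.8 at stage 4, 73.6 at stage 5, 53.3 at stage 6, 51.3 at stage 7, 57.6 at stage 8, 80.8 at stage 9, 130 at stage 10, 174 at stage 11, 393 at stage 12, 790 at stage 14, 795 at stage 16, 958 at stage 19, 1080 at stage 24 and 997 at stage 40. Between stages 2 and 3 the mean TPM was lower at the later stage for all 73 members, between 4 and 5 it was higher for 60, between 7 and 8 it was higher for all 73, and the largest steps were from stage 11 to 12, with a median ratio of 2.44, and from 12 to 14, with 2.01. Across the 17 stage means of log2(TPM + 1), the Pearson correlation of a member with the median of the other members was 0.98 or more for 67 of 73, with a median of 0.995. These points share the libraries and their scaling, and the values are given as a description with no test. The lowest stage was stage 7 for 50 members, 6 for 12, 4 for 10 and 1 for RPL7L1, and the highest was stage 24 for 47 and 40 for 25. Replicate 2 of stage 7 was the lowest embryo of its stage for 67 of the 73. Its median member had 42.8 TPM, against 54.9 and 56.5 in the other embryos of stage 7. The summed shares were 0.483, 0.399 and 0.484% at stage 7, and 0.46, 0.479 and 0.488% at stage 6. The order of stages 6 and 7 by mean share thus rests on that embryo. The highest stage mean was a median of 21.3 times the lowest, and 8.54 times for RPLP2 of the stalk, the smallest ratio. Among the members with the lowest correlation were RPL7L1 with 0.715, RPL22L1 with 0.907, RPL13 with 0.972 and RPLP2 with 0.976.

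The medians of small and large subunit genes followed the same course. The median of 27 measured small subunit members was 123 TPM at stage 1, 57.7 at stage 7, 492 at stage 12, 969 at stage 14 and 1160 at stage 40. The median of 46 large subunit members was 111, 47.9, 373, 755 and 919 TPM at the same stages. Levels per gene length nonetheless differed widely between members. RPSA, a small subunit protein also known as the laminin receptor, averaged 3050 TPM at stage 24 and 3300 at stage 40, and RPLP1 of the stalk, the lateral arm that recruits elongation factors, 2750 and 3260. At the low end were RPL31 of the large subunit, with 315 TPM at stage 24, and RPL7L1, with 217 TPM at stage 40. This order is one of TPM, which depends on the length assigned to each gene, and not of counts. RPL31 reached at most 27600 estimated counts and 372 TPM in a poly(A) library. RPL35 of the large subunit reached at most 32100 counts and 2490 TPM. The part of the assigned lengths in the spread between members was not tested.

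**Figure D2:**
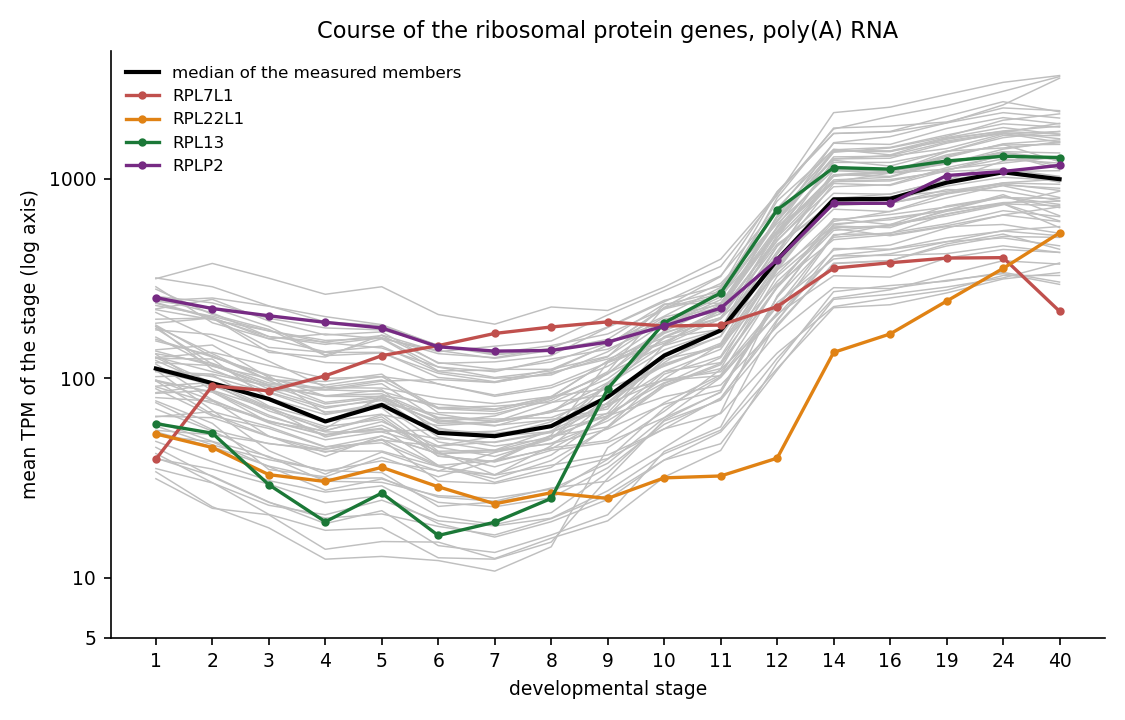
Mean TPM (log axis) of measured members over the 17 stages in poly(A) RNA, 1 member not being drawn; grey lines are members, the black line is the median of all 73 and colours mark 4 members with a low correlation with it. RPL7L1 climbs during cleavage while the median falls, and RPL22L1 stands at 39.8 TPM at stage 12, where the median is 393.

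At the first cleavage few members passed the test. Calls were made at an adjusted p under 0.05 by edgeR's quasi-likelihood test with Benjamini-Hochberg adjustment over all 14437 tested genes, 74 of them members. The log2 changes of the fit rest on counts scaled between libraries by TMM (trimmed mean of M values), which centres most genes near 0, and so differ from ratios of mean TPM. Successive comparisons share the libraries of the stage between them. In poly(A) RNA at stage 2 against stage 1, 1 member, RPL7L1, was higher and 1, RPS3A, was lower, while 21.6% of all tested genes were higher and 11.1% lower. The median log2 change of the members was -0.23, against 0.02 for all genes, and 59 of 73 measured members had a change below 0. RPS3A, a small subunit protein, had 163, 247 and 158 TPM at stage 2, against 274 and 302 at stage 1, a log2 change of -0.59 ± 0.21 (SE; adjusted p = 0.0283 by edgeR). Replicate 2 of stage 2 was again the highest of the 3, and no embryo of stage 2 reached the level of stage 1. Without that embryo 23 members were lower, and without any 1 of the other 4 embryos 0 were. The shares of all genes called in these fits are not given here. The late tissue markers summed to less at stage 2 than at stage 1. They summed to 58.3 to 178 TPM at stage 2, with 21 to 23 of 25 detected, the 178 in replicate 2. At stage 1 they summed to 363 and 813 TPM, with 23 and 24 detected. Muscle MYLPF with 165 TPM and liver ALB with 61.9 TPM led at stage 1, and epithelial KRT8 with 23.3 TPM at stage 2. The lens markers CRYAA and CRYGN were at 0 in all embryos of stage 2 and CRYAA in both of stage 1. The part of these markers in the result was not tested.

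Without poly(A) selection no member passed the test. In total RNA at stage 2 against stage 1, 0 of 73 members were called by edgeR's quasi-likelihood test, while 1.44% of 11419 genes were higher and 0.543% lower. All 73 log2 changes were below 0, with a median of -0.37 against -0.01 for all genes. An unadjusted p under 0.05 was reached by 26 members, and DESeq2's Wald test called 7 lower. The shares of all genes by these measures are not given here. The members' share of total RNA TPM was 0.243, 0.369 and 0.251% at stage 2, against 0.369 and 0.361% at stage 1. Replicate 2 of stage 2 lay at the level of stage 1 and the other stage 2 libraries below it. Without that replicate 55 members were lower, and the share of all genes called in that fit is not given here. The late tissue markers again summed to less at stage 2, 30.6 to 57.7 TPM with 18 to 19 of 25 detected. At stage 1 they summed to 187 to 312 TPM with 22 to 24 detected, led by muscle MYL1 with 44.9 TPM and MYLPF with 40.6 TPM. CRYAA was at 0 in all 5 libraries, and the part of these markers in the result was not tested.

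Poly(A) and total RNA levels were set side by side at both stages with no test, because the tables were scaled apart. At stage 2 the median ratio of poly(A) to total RNA TPM was 2.86 over the 73 members and 1.37 over the 10474 genes with 1 TPM or more in both, and at stage 1 it was 2.74 and 1.46. The members differed widely. RPS26, which contacts mRNA at the exit channel of the small subunit, had 98.4, 124 and 90.2 TPM in poly(A) RNA and 5.47, 3.0 and 3.94 TPM in total RNA at stage 2, a ratio of means of 25.2. The total RNA values rested on 67, 29 and 38 estimated counts, the fewest of any measured member in each library. RPS10, near the mRNA entry of the small subunit, followed with a ratio of 16.5 (253 ± 34.6 against 15.3 ± 2.23 TPM) and RPS13, which bridges the subunits, with 11.3. Toward the other end RPL26, at the mouth of the nascent peptide tunnel, had a ratio of 0.933 and RPL38, required for translation of Hox mRNAs in the mouse, 0.965. Library protocol and read length differ between the kinds of library, and their part in these ratios was not tested.

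**Figure D3:**
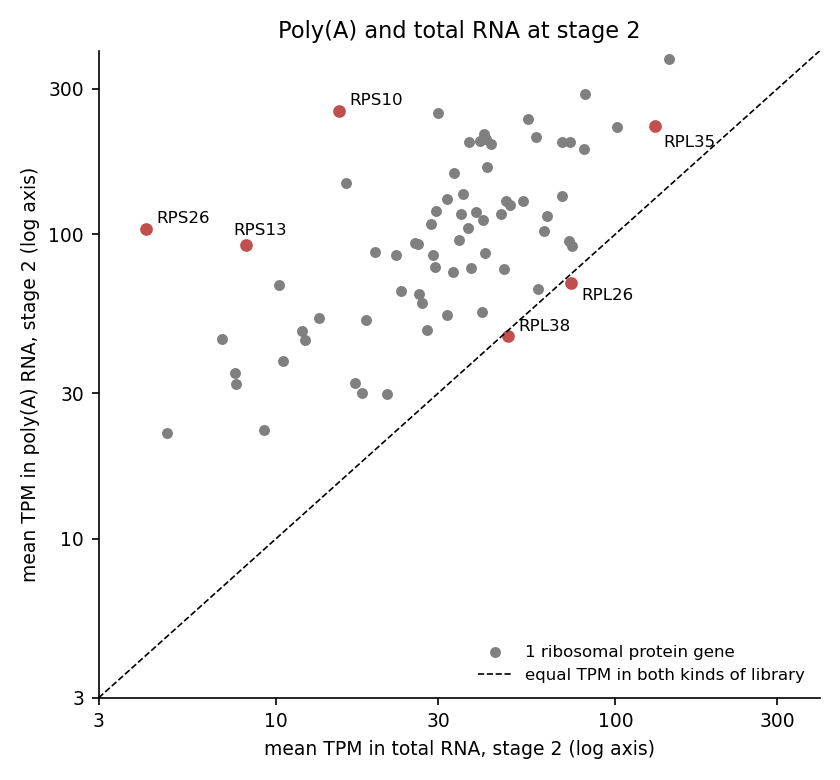
Mean TPM at stage 2 in poly(A) RNA (3 embryos, vertical log axis) and total RNA (3 libraries, horizontal log axis) for measured members, 1 of them not drawn; the dashed line marks equal TPM. RPS26 lies farthest above the line with a ratio of 25.2, and RPL26 lies just below it with 0.933.

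Nearly all members were lower in poly(A) RNA at stage 8 than at stage 2, although not at each step between them, as the medians by stage show. At stage 8 against stage 2, 68 of 74 tested members were lower and 1 was higher by edgeR's quasi-likelihood test, while 18.9% of all genes were lower and 24.9% higher. The median log2 change of the members was -1.15, against 0.04 for all genes. The TPM of the embryos did not overlap, with stage 8 lower, for 58 members and for 9.49% of all genes. RPS26 fell most: 37.8, 53.0 and 40.1 TPM at stage 8 lay below 98.4, 124 and 90.2 TPM at stage 2, a log2 change of -1.63 ± 0.21 (adjusted p = 2.82e-07). RPS12, a small subunit protein, had 68.5, 67.6 and 50.6 TPM at stage 8, against 130, 186 and 123 TPM at stage 2. Its log2 change was -1.60 ± 0.32 (adjusted p = 0.000117 by edgeR). RPL37A, a zinc finger protein of the large subunit, averaged 50.1 ± 10.7 TPM at stage 8 and 111 ± 35.1 TPM at stage 2 (log2 change -1.53 ± 0.32).

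Members with known roles in both subunits were among those that fell. Among small subunit proteins, RPS19, mutated in Diamond-Blackfan anaemia, changed by -1.49 ± 0.28 on the log2 scale, RPS14, lost in the human 5q- syndrome, by -1.48 ± 0.35, and RPS6, the substrate of S6 kinase, by -0.71 ± 0.25, with overlapping embryos. RPS4X, the small subunit protein with X and Y copies in humans, changed by -0.88 ± 0.22. All 4 passed the test, with RPS6 at an adjusted p of 0.0205 by edgeR. Of the stalk, RPLP0 changed by -0.95 ± 0.19 and RPLP2 by -1.07 ± 0.18. RPL10, which joins the large subunit last, changed by -1.37 ± 0.28 and RPL3, near the peptidyl transferase centre, by -0.89 ± 0.17. RPL5 and RPL11 form with 5S rRNA the particle that can bind MDM2. RPL11 was lower, at -1.35 ± 0.22, whereas RPL5 was not called, with 54.1 ± 5.05 TPM at stage 8 and 55.3 ± 10.5 TPM at stage 2 (log2 change -0.39 ± 0.18, adjusted p = 0.0693 by edgeR). The difference between RPL5 and RPL11 was not tested.

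RPL4, whose loop lines the exit tunnel, and RPS27, a zinc finger protein of the small subunit, were also not called. RPL4 averaged 107 ± 10.0 TPM at stage 8 and 115 ± 30.7 TPM at stage 2 (log2 change -0.46 ± 0.20), and RPS27 51.9 ± 8.55 and 59.5 ± 30.6 TPM (log2 change -0.57 ± 0.31). Neither passed the test, with adjusted p = 0.0606 for RPL4 and 0.141 for RPS27 by edgeR. Without replicate 2 of stage 2 the count of members that fell was 52, and RPL26, RPS6, RPSA, RPL22, RPS3 and RPS27A were among those no longer called. The share of all genes called without that embryo is not given here. Markers of late tissues summed to 50.3 to 98.1 TPM at stage 8, with 20 to 21 of 25 detected, and to 58.3 to 178 TPM at stage 2. The highest sum of stage 2 was in replicate 2, where most members were highest. That of stage 8 was in replicate 3, the lowest embryo of its stage for 67 of the 73 measured members. The part of these markers in the result was not tested.

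RPL7L1 was the 1 member called higher. It is a paralog of RPL7 that in human cells acts in the assembly of the large subunit. It had 191, 180 and 172 TPM at stage 8, against 75.9, 67.4 and 132 TPM at stage 2, with no overlap (log2 change 0.64 ± 0.14, adjusted p = 0.000454 by edgeR), and the call was lost when only these 6 libraries were fitted (adjusted p = 0.057). It had already been higher in poly(A) RNA at stage 2, with the values above, against 40.8 and 37.9 TPM at stage 1 (log2 change 1.2 ± 0.17, adjusted p = 1.04e-06). In total RNA it had 71.5, 77.5 and 73.7 TPM at stage 2 and 79.3 and 71.6 TPM at stage 1, a log2 change of -0.06 ± 0.10. The stages did not overlap in poly(A) RNA and overlapped in total RNA, and the difference between the kinds of library was not tested. With r = 0.715 it had the lowest correlation of any measured member with the course of the others.

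**Figure D4:**
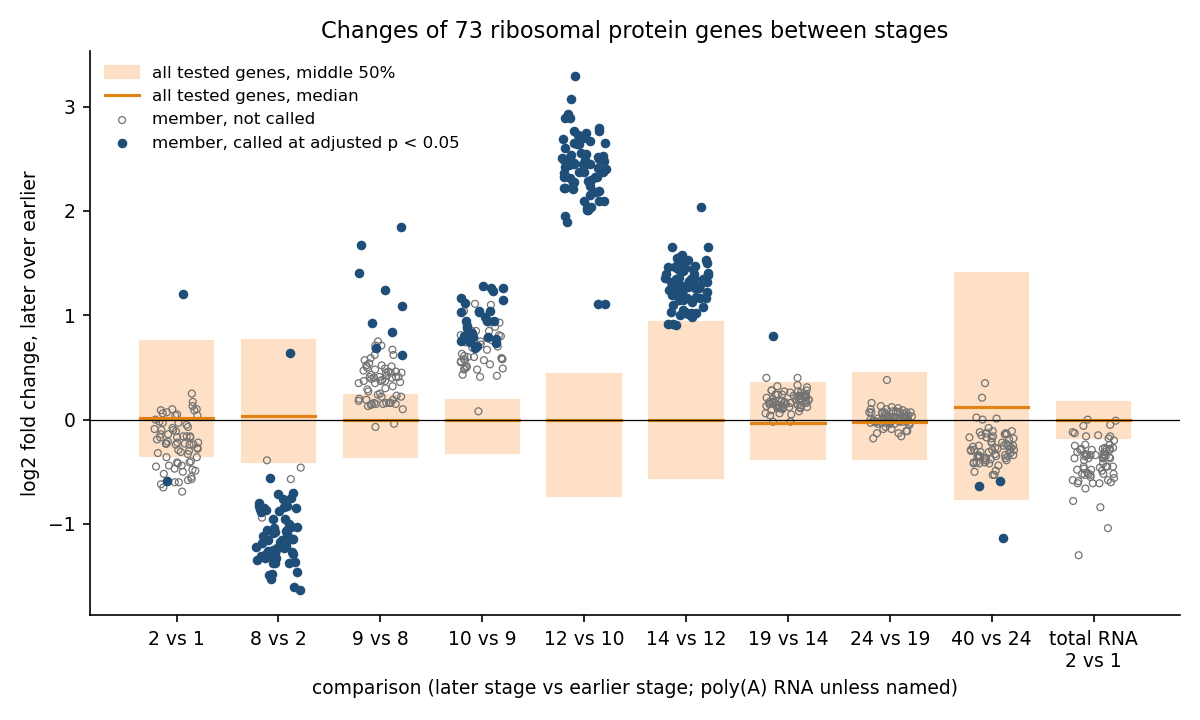
Log2 fold changes of the 73 measured members (points; filled where called) in the 10 comparisons, later over earlier stage; boxes hold the middle 50% of all tested genes and the orange line is their median. All but RPL7L1 lie below 0 at stage 8 against 2, and all lie above 0 at stages 12 against 10 and 14 against 12, where 73 are called.

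At the blastula some increases passed the test, and their number depended on the fit. Stage 8 against 7 was not tested, and there the mean TPM was already higher at stage 8 for all 73 measured members. Replicate 2 of stage 7 was the lowest of its stage for 67 of them. At stage 9 against stage 8, 9 of 74 members were higher, while 4.02% of all genes were higher and 11.8% lower; the median log2 change was 0.41 for members and 0 for all genes. The embryos did not overlap, with stage 9 higher, for 38 members and for 13.8% of all genes. The largest change was that of RPL13, a large subunit protein, with 83, 78.0 and 105 TPM at stage 9, against 29.9, 26.8 and 18.2 TPM at stage 8. Its log2 change was 1.85 ± 0.35 (adjusted p = 0.000138 by edgeR). RPS3, at the mRNA entry channel, had 33.1, 43.9 and 57.6 TPM at stage 9, against 16.1, 15.8 and 11.2 TPM at stage 8 (log2 change 1.67 ± 0.30). In both genes each embryo of stage 9 lay above each of stage 8. RPS27, RPL23, RPL7A, RPL30, RPL27A and RPL3 were also called, with log2 changes of 1.24 to 0.62. The count was 36 in a fit of the 6 libraries alone and 16 with DESeq2's Wald test. It was 15 with library size alone and 3 without replicate 3 of stage 9. With library size alone 538 of 14437 genes were higher and 1400 lower, and the shares for the other fits are not given here. Of the 73 measured members 71 had a change above 0, and the share of all genes above 0 is not given here. Replicate 3 of stage 9 was the highest of its stage for 69 members. Replicate 3 of stage 8 was the lowest of its stage for 67, so the members are not independent observations. The late tissue markers, led by the epithelial keratin KRT8 at 103 TPM, summed to 202 to 288 TPM at stage 9 with 20 to 23 of 25 detected, against 50.3 to 98.1 TPM with 20 to 21 detected at stage 8, and CRYAA was at 0 in all 6 embryos. Their part in the result was not tested.

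At the onset of gastrulation more members rose, but the count rested on single embryos. At stage 10 against stage 9, 28 of 74 members were higher, where 1.83% of all genes were. The median log2 change was 0.77 for members and 0 for all genes. An unadjusted p under 0.05 was reached by 72 members, and the share of all genes that reached it is not given here. The embryos did not overlap, with stage 10 higher, for 50 members and for 5.04% of all genes. RPL13 had 273, 150 and 147 TPM at stage 10, against 83, 78.0 and 105 TPM at stage 9 (log2 change 1.28 ± 0.34, adjusted p = 0.0227 by edgeR). RPS12 had 228, 108 and 108 TPM, against 65.0, 62.4 and 83.4 TPM (1.26 ± 0.32), and RPL39, a small protein of the exit tunnel, averaged 227 ± 113 and 108 ± 23.9 TPM (1.26 ± 0.33). Replicate 1 of stage 10 was the highest embryo in both genes whose embryos are given, and the embryos of the stages did not overlap. Without it, or without replicate 1 or 2 of stage 9, 0 members were called, and without replicate 2 of stage 10 it was 45. A fit of the 6 libraries alone called 0 and DESeq2's Wald test 45. The shares of all genes called in these fits are not given here. Markers of late tissues summed to 325 to 439 TPM at stage 10 with 21 to 22 of 25 detected, against 202 to 288 TPM at stage 9 with 20 to 23 detected, and KRT8 led with 197 TPM at stage 10 and 103 TPM at stage 9. CRYAA was at 0 in all 6 embryos, and the part of these markers in the result was not tested.

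During gastrulation all measured members rose. At stage 12 against stage 10, 73 of 74 tested members were higher, while 20.3% of all genes were higher and 24.3% lower. The median log2 change was 2.45 for members and 0 for all genes. The embryos did not overlap for 73 members, against 8.87% of all genes with stage 12 higher and 63.0% with it lower. RPS27A, made as a fusion with ubiquitin, had 263, 246 and 267 TPM at stage 12, against 57.2, 39.1 and 38.3 TPM at stage 10 (log2 change 3.29 ± 0.30, adjusted p = 2.39e-11 by edgeR). RPS14 had 1020, 698 and 860 TPM, against 240, 136 and 146 TPM (3.07 ± 0.35). RPL35A, a large subunit protein mutated in Diamond-Blackfan anaemia, averaged 194 ± 24.0 TPM at stage 12 and 43.0 ± 16.2 TPM at stage 10 (2.93 ± 0.32).

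The rise was smaller in some members than in others. RPL22L1 and RPL7L1 changed least, both by 1.11 on the log2 scale (SE 0.19 and 0.14), and RPLP2, RPL5 and RPL22 followed with 1.89 ± 0.18, 1.95 ± 0.18 and 2.01 ± 0.20. With library size alone the median of all genes was -0.83 and that of the members 1.62. Under this scaling 71 members were higher, while 1100 of 14437 genes were higher and 8637 lower. RPL22L1 and RPL7L1, at 0.26 each, were then not called. With each of the 6 embryos left out in turn 73 members were called, and the shares of all genes in these fits are not given here. The late tissue markers summed to 1080 to 1360 TPM at stage 12 with 22 to 23 of 25 detected, against 325 to 439 TPM at stage 10 with 21 to 22 detected. Most of these sums lay in the keratins KRT8 and KRT18, with 815 and 280 TPM at stage 12 and 197 and 82.8 TPM at stage 10. The sums are thus not read as a rise of the other late tissues. CRYAA was at 0 in all 6 embryos, and the part of these markers in the result was not tested.

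Between gastrula and neurula the members rose again. At stage 14 against stage 12, 73 of 74 were higher, while 27.4% of all genes were higher and 24.9% lower, with a median log2 change of 1.28 for members and 0 for all genes. For 73 members no embryos overlapped, against 22.7% of all genes with stage 14 higher and 39.3% with it lower. RPL22L1, the paralog of RPL22, led with 149, 116 and 140 TPM at stage 14, against 40.2, 40.4 and 38.7 TPM at stage 12 (log2 change 2.04 ± 0.19, adjusted p = 4.06e-11 by edgeR). RPL26 averaged 1100 ± 20.3 TPM at stage 14 and 423 ± 28.0 TPM at stage 12 (1.65 ± 0.32). RPSA had 2000, 2290 and 2150 TPM, against 918, 717 and 848 TPM (1.65 ± 0.20). The smallest change of a measured member was that of RPL38, with 327 ± 15.6 and 210 ± 23.1 TPM (0.91 ± 0.29, adjusted p = 0.00899 by edgeR). The late tissue markers summed to 2100 to 2630 TPM at stage 14 with 20 to 22 detected and to 1080 to 1360 TPM at stage 12 with 22 to 23 detected. Keratins led at both stages, KRT8 with 1100 TPM and KRT5 with 740 TPM at stage 14, and KRT8 with 815 TPM and KRT18 with 280 TPM at stage 12. The part of the markers in the result was not tested.

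After stage 14 few members passed the test. At stage 19 against stage 14, 1 of 74 members, RPL22L1, was higher, where 6.73% of all genes were higher and 11.0% lower, and 2 had an unadjusted p under 0.05. The median log2 change was 0.17 for members and -0.03 for all genes, with 71 of 73 above 0. The embryos did not overlap, with stage 19 higher, for 46 members and for 16.8% of all genes. RPL22L1 had 288, 205 and 240 TPM at stage 19, against 149, 116 and 140 TPM at stage 14, with no overlap (log2 change 0.80 ± 0.18, adjusted p = 0.00243 by edgeR). At stage 24 against stage 19, 0 of 74 were called by edgeR and 0 by DESeq2's Wald test, while 11.0% of all genes were higher and 13.1% lower; 2 members had an unadjusted p under 0.05, and the median log2 change was 0.01. At this step the embryos did not overlap, with stage 24 higher, for 23 members and for 23.3% of all genes.

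From tail bud to hatching 3 members fell. At stage 40 against stage 24, 3 of 74 were lower and 0 higher by edgeR's quasi-likelihood test, as by DESeq2's Wald test, and 5 had an unadjusted p under 0.05, while 37.7% of all genes were higher and 30.9% lower. RPL7L1 had 231, 207 and 213 TPM at stage 40, against 410, 371 and 430 TPM at stage 24 (log2 change -1.13 ± 0.14, adjusted p = 1.35e-08 by edgeR). RPL22, an RNA-binding protein of the large subunit surface, had 561, 602 and 546 TPM, against 703, 906 and 643 TPM (-0.64 ± 0.19, adjusted p = 0.00386). RPL21, a large subunit protein, averaged 654 ± 37.3 and 834 ± 109 TPM (-0.59 ± 0.22, adjusted p = 0.0177 by edgeR). The calls of RPL22 and RPL21 were lost without replicate 2 of stage 24, and that of RPL21 also without replicate 1 of stage 40. The median log2 change was -0.29 for members and 0.12 for all genes. With library size alone these were 0.14 and 0.54, so the sign of the members' median depends on the scaling. Then 5 members were higher and 1 lower, while 6842 of 14437 genes were higher and 2775 lower. Fitted on these 6 libraries alone, 34 members were lower and 1 higher, and the share of all genes in that fit is not given here. At the same time the late tissue markers summed to 55900 to 71100 TPM at stage 40 with 24 to 25 of 25 detected, against 2730 to 3680 TPM at stage 24 with 23 to 24 detected, and their part in the result was not tested.

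The levels of the paralogs RPL22 and RPL22L1 lay farthest apart, as a ratio of stage means, at stage 12. RPL22L1 had 52.7 ± 6.69 TPM at stage 1 and 26.7 ± 1.29 at stage 8, where RPL22 had 127 ± 1.75 and 75.8 ± 7.80. At stage 12 the levels were 39.8 ± 0.968 TPM for RPL22L1 and 229 ± 34.2 for RPL22, and at stage 40 they were 536 ± 38.3 and 570 ± 28.7. At stage 40 the embryos of the paralogs overlapped, with 498 to 574 TPM for RPL22L1 and 546 to 602 for RPL22. The change of RPL22L1 at stage 40 against stage 24 was 0.35 ± 0.18 (adjusted p = 0.0844 by edgeR), with no overlap between 536, 574 and 498 TPM at stage 40 and 345, 367 and 356 TPM at stage 24. RPLP0 likewise had 3170, 3140 and 3280 TPM at stage 40, above 2160, 2320 and 2570 TPM at stage 24, with a log2 change of 0.21 ± 0.18 that did not pass. Between these stages the embryos did not overlap, with stage 40 higher, for 6 members and for 46.8% of all genes. With stage 40 lower it was 11 members and 26.4% of all genes.

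Other genes of the ribosome's production line were followed as lists beside the members, and the shares of all genes called in each comparison are the background for their counts. These were 21.6% higher and 11.1% lower at stage 2 against 1, 24.9% and 18.9% at stage 8 against 2, 20.3% and 24.3% at stage 12 against 10, 27.4% and 24.9% at stage 14 against 12, and 37.7% and 30.9% at stage 40 against 24. Of 83 ribosome biogenesis factors, which process rRNA and assemble subunits, 50 were higher and 5 lower at stage 2 against stage 1, and 47 higher and 14 lower at stage 8 against stage 2, with medians of 0.75 and 0.47 on the log2 scale where the members had -0.23 and -1.15. MRTO4, a large subunit assembly factor, averaged 272 ± 29.9 TPM at stage 8 and 76.4 ± 37.0 TPM at stage 2 (log2 change 1.5 ± 0.17, adjusted p = 4.29e-08 by edgeR). NAT10, an RNA acetyltransferase of 18S rRNA, averaged 138 ± 6.59 and 38.5 ± 20.3 TPM (1.52 ± 0.20). In total RNA at stage 2 against stage 1 the biogenesis list had 0 higher and 1 lower, MPHOSPH10, with a median of -0.11. Of all 11419 genes tested there, only 1.44% were higher and 0.543% lower. Of 16 genes of RNA polymerase I and its factors, which transcribe rRNA, 9 were higher and 1 lower at stage 2 against stage 1, and 10 higher and 1 lower at stage 8 against stage 2. This list had 4 higher and 3 lower at stage 12 against stage 10, with a median of -0.05, and 2 higher and 7 lower at stage 14 against stage 12, with a median of -0.37.

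In gastrulation the direction of most of these lists depended on the scaling. At stage 12 against stage 10, 35 of 45 translation factors were higher and 2 lower, 18 of 19 other TOP mRNAs higher and 1 lower, and 44 of 83 biogenesis factors higher and 3 lower, with medians of 0.72, 1.34 and 0.39. The translation factors and the other TOP mRNAs share genes, EIF3F and EEF2 among them, so their counts are not independent. EEF1G, a subunit of the elongation factor that loads tRNA, averaged 620 ± 62.6 TPM at stage 12 and 333 ± 25.9 TPM at stage 10 (log2 change 1.68 ± 0.16). NHP2L1, a box C/D snoRNP protein, averaged 465 ± 28.1 and 227 ± 4.31 TPM (1.82 ± 0.16). Among 17 regulators of TOP mRNAs, 10 were higher and 3 lower. MYC, a transcription factor that drives ribosome production, averaged 94.7 ± 19.3 TPM at stage 12 and 9.14 ± 1.12 TPM at stage 10 (4.16 ± 0.27). At stage 9 against stage 8 MYC had been lower, with 9.99 ± 0.559 and 32.6 ± 6.26 TPM (-1.69 ± 0.26). With library size alone 1100 of 14437 genes were higher and 8637 lower at stage 12 against stage 10. The biogenesis list then turned to 18 higher and 44 lower, translation factors to 14 and 16 and the TOP regulators to 3 and 10. The RNA polymerase I list turned to 1 and 13, and other TOP mRNAs stood at 12 and 3. The median of the other TOP mRNAs was then 0.49, and the medians of the other 5 lists were below 0, where that of all genes was -0.83. At stage 14 against stage 12, 31 of 45 translation factors and 16 of 19 other TOP mRNAs were higher. The 17 regulators of TOP mRNAs had 8 higher and 3 lower there, and 5 and 5 with library size alone. Under that scaling 3030 of 14437 genes were higher and 4951 lower. LARP1 of that list averaged 61.7 ± 23.1 TPM at stage 14 and 21.2 ± 1.19 TPM at stage 12 (1.80 ± 0.14 with TMM).

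Most ribosome assembly factors fell late. At stage 40 against stage 24 the 83 biogenesis factors had 79 lower and 1 higher, with a median of -1.38. With library size alone 71 were lower, while 6842 of 14437 genes were higher and 2775 lower. NOLC1, a nucleolar phosphoprotein, averaged 54.1 ± 6.76 TPM at stage 40 and 188 ± 21.0 TPM at stage 24 (log2 change -2.03 ± 0.13, adjusted p = 3.38e-16 by edgeR). The 45 translation factors had 33 lower and 3 higher, and the 19 other TOP mRNAs 11 lower and 1 higher, turning to 4 higher and 5 lower with library size alone. NPM1, a nucleolar chaperone on the TOP list, averaged 77.9 ± 5.22 and 272 ± 26.3 TPM (-2.05 ± 0.19). The 71 tested proteins of the mitochondrial ribosome had 18 higher and 25 lower at stage 8 against 2, 29 higher and 6 lower at stage 12 against 10, 13 and 15 at stage 14 against 12, and 20 and 17 at stage 40 against 24. With library size alone these counts were 25 higher and 12 lower at stage 8 against 2, and 2 and 45 at stage 12 against 10. They were 9 and 32 at stage 14 against 12, and 42 and 3 at stage 40 against 24. The balance of the list thus turned round with the scaling in the first pair of these comparisons. Of all 14437 genes, 4808 were then higher and 1178 lower at stage 8 against 2, and 1100 and 8637 at stage 12 against 10. They were 3030 and 4951 at stage 14 against 12, and 6842 and 2775 at stage 40 against 24. Differences between the lists were not tested.

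**Figure D5:**
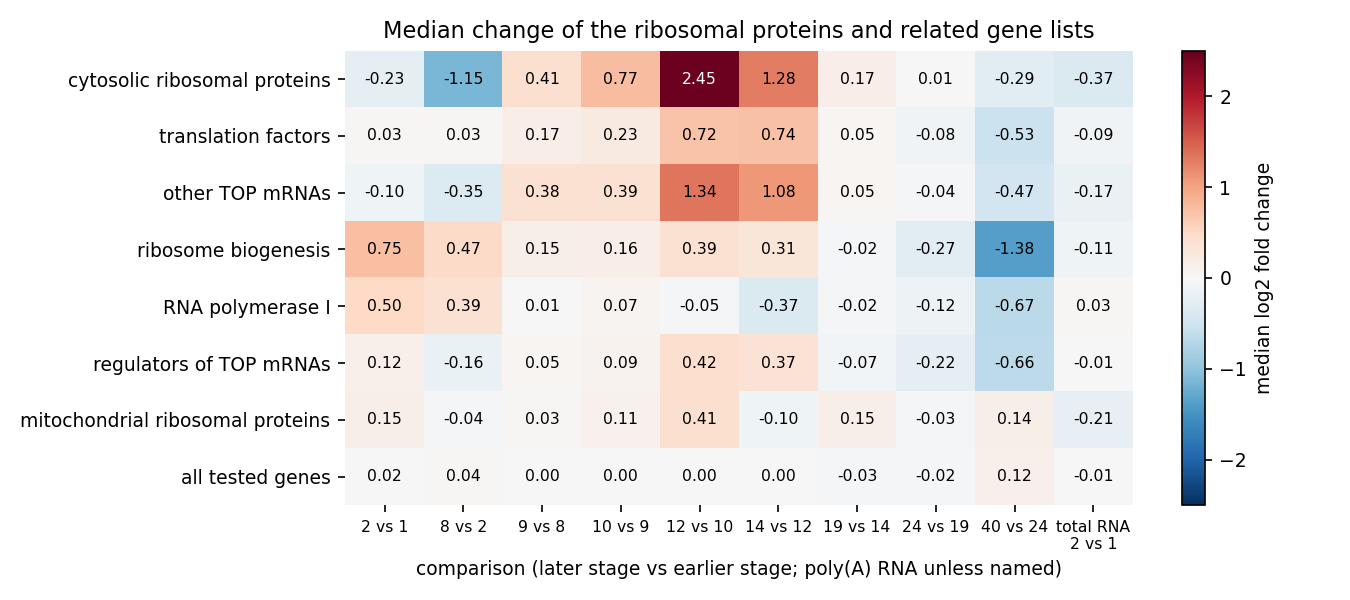
Median log2 fold change, later over earlier stage, of the cytosolic ribosomal proteins, 6 related gene lists and all tested genes in the 10 comparisons (TMM scaling). The members have the lowest median of the lists shown at stage 8 against 2, -1.15, and the highest at stage 12 against 10, 2.45, and ribosome biogenesis has -1.38 at stage 40 against 24, where the members have -0.29.

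The 11 members listed near 0 were RPL10L, RPL26L1, RPL36A, RPL3L, RPL41, RPS18, RPS21, RPS24, RPS25, RPS27L and RPS4Y1. None exceeded 28 estimated counts in a poly(A) library or 4 in a total RNA library. Related names were split, with RPL10, RPL26, RPL3, RPS27 and RPS4X measured and RPL10L, RPL26L1, RPL3L, RPS27L and RPS4Y1 near 0. RPS18, RPS21, RPS24, RPS25, RPL36A and RPL41 are names of core proteins that every ribosome carries in other vertebrates, so a value near 0 under such a name is not read as the absence of its mRNA. RPL36AL, a name outside the rule and the close paralog of RPL36A, had 751 ± 116 TPM at stage 1, 380 ± 14.3 at stage 8, 2060 ± 124 at stage 12, 3650 ± 161 at stage 14 and 4440 ± 315 at stage 40. Reads of near-identical members can be shared or assigned to a single name, and the sources used here do not say how the reference treated such copies. RPS18 alone of the 11 passed the filter on low counts, and its fitted changes rest on at most 28 counts and are not read.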

How the data were processed

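Per the labels' protocols, reads were paired and of 101 bases for poly(A) RNA of single embryos, and single and of 65 bases for total RNA. The authors deposited expected counts (RSEM estimates per gene, not normalized) and TPM scaled per library. The submitters' processing notes name Bowtie 0.12.1 and RSEM 1.1.6; the sources used here do not give the reference or the use of strand. Expected counts were rounded and tested in edgeR 4.0.16 (R 4.3.3): filterByExpr by stage, TMM, all 17 stages in 1 quasi-likelihood fit, F tests between stages with Benjamini-Hochberg adjustment over all genes tested in that comparison, threshold 0.05. SE is the log2 change over the square root of F. The 2 kinds of library were tested apart. Of 15631 genes 14437 were tested in poly(A) RNA (0.00288% of counts left out, common dispersion 0.0429) and 11419 in total RNA (0.0301%, 0.017). No 2 libraries of a stage agreed within sampling noise (chi-square over its degrees of freedom at least 5.7 in 51 pairs). On simulated data for stage 10 against 9 (14350 genes), 66 of 100 genes changed 2-fold and 93 of 100 changed 4-fold were recovered with 3 false calls; for total RNA (11240 genes) it was 71, 89 and 12.

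The members and lists were chosen with earlier results of these data known. Named were a panel of members by role, up to 3 called members with the largest change each way, at 10 TPM or more and without overlap, members against the majority, the 5 least correlated with the median course, those with the highest and lowest TPM, and the 2 list genes with the smallest adjusted p; the text names part of them, and 1 member is not reported here on its own. RPL39L of the panel was not used here. Gene symbols are those of the tables, and 65 of the 84 are symbols in the RefSeq table (assembly UKY_AmexF1_1), of which no coordinates were used. Alternatives were DESeq2 1.42.0 (Wald test, or its size factors), library size alone, no filter, only the libraries of the 2 stages, a replicate block and each library left out; for shares, percent of counts and sets without paralogs.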

Additional observations from a re-analysis of the deposited data

How the results depend on the processing

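At stages 12 against 10 and 14 against 12 the 73 members called higher were 73 with each embryo left out. Counts of members called moved as follows. Beside those with DESeq2's size factors or library size alone stand the counts of all 14437 genes. For the other fits the share of all genes is not given. At stage 2 against 1 the lower calls were 0 with the 2 stages alone, 5 with DESeq2's Wald test, 4 with its size factors, 10 with library size alone and 0 to 23 with an embryo left out. Of all genes 2326 were lower with DESeq2's size factors and 1954 with library size alone. At stage 8 against 2 the higher calls were 0 with the 2 stages alone, and the lower calls 52 to 71 with an embryo left out. At stage 9 against 8 the higher calls were 36 with the 2 stages alone, 16 with DESeq2, 15 with library size alone and 3 to 13 with an embryo left out. Of all genes 538 were higher there with library size alone. At stage 10 against 9 the higher calls were 0 with the 2 stages alone, 45 with DESeq2 and 0 to 45 with an embryo left out. At stage 19 against 14 they were 2 with DESeq2 (either way of using it) or library size alone, and at stage 24 against 19 1 with library size alone, with 0 to 1 lower when an embryo was left out (1 without replicate 1 or 2 of stage 19). Of all genes 954 were higher at stage 19 against 14 with library size alone and 1437 with DESeq2's size factors. At stage 24 against 19 it was 2168 with library size alone. At stage 40 against 24 the higher calls were 1 with the 2 stages alone and 5 with library size alone. Lower calls were 34 and 1 under these, and 1 to 7 with an embryo left out (7 without replicate 3 of stage 24). Of all genes 6842 were higher and 2775 lower there with library size alone. In total RNA the lower calls were 7 with DESeq2 and 0 to 55 with a library left out. The cause of these moves was not tested.

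With an embryo left out the log2 change of RPS18, near 0 counts, ranged from 0.0 to 5.39 at stage 12 against 10 and from -4.88 to 2.97 at stage 14 against 12, reversed without replicate 1 of stage 12.

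As a percent of estimated counts the share was 0.726 at stage 1, 0.587 at stage 2, 0.352 at stage 8, 2.1 at stage 12, 4.26 at stage 14 and 6.69 at stage 40, and 0.238 and 0.197 in total RNA of stages 1 and 2. Without the 6 paralog names it was 6.26 at stage 14 and 0.356 in total RNA of stage 1. Without COX1 and RN7SL1, an alternative chosen after seeing the data, it was 6.57 at stage 14, and 0.738 and 0.586 in total RNA of stages 1 and 2. With an embryo or library left out the share ranged over 0.922 to 0.995 at stage 1, 0.709 to 0.902 at stage 2, 0.492 to 0.54 at stage 8, 2.96 to 3.25 at stage 12, 6.29 to 6.33 at stage 14 and 8.25 to 8.5 at stage 40, and over 0.361 to 0.369 and 0.247 to 0.31 in total RNA of stages 1 and 2.

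In 0 of 9 comparisons did every pair of same-numbered embryos correlate above 0.1, and 6 of 26 embryos matched best with their own number. Each comparison had only 2 or 3 such pairs, and stage 3 was in none of them. This check thus cannot decide whether embryos of the same number shared a clutch or a batch. With a replicate block 22 members were higher at stage 10 against 9 and 67 lower at stage 8 against 2. The shares of all genes called with the block are not given here. No such fit was run in total RNA, where the embryos of origin are not given in the sources used here. With 2 or 3 libraries a stage, 66 and 71 of 100 simulated 2-fold changes were recovered at stage 10 against 9 and in total RNA.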
